A study of Mus musculus with 9 samples.

Results

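Glucocorticoid-induced genes are the genes that the adrenal hormone corticosterone, or a synthetic relative of it, switches on through the glucocorticoid receptor. The 10 genes described here, Fkbp5, Tsc22d3, Sgk1, Zbtb16, Klf9, Mt1, Mt2, Cebpd, Errfi1 and Lcn2, were chosen by name as genes that glucocorticoids induce in many tissues, by a rule that uses no value measured here. Earlier results of these data were, however, known when the genes were chosen, so the choice was not blind to them. They are 10 of the 54532 gene identifiers in the deposited count table, and all 10 were found there by symbol. Of these, 9 had enough counts to be tested, and Mt2 did not. The level of the hormone itself was not part of these data.

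Bulk RNA sequencing was done on submandibular salivary glands of wild-type (WT) mice that had received 10 Gy of radiation. There were 9 libraries, with 3 glands at 30 days, 3 at 60 days and 3 at 90 days after irradiation, and all 3 groups share the genotype and the dose. RNA came from 4 tissue sections of 50 µm per gland, so a library samples only a slice of the organ. The labels give no strain, age, sex or hour of harvest, and non-irradiated glands were not analysed here. Time since irradiation and age therefore cannot be told apart, and a value at 30 days is no baseline. Nothing in the labels says more about how the 3 glands of a group are related, so p-values measure only the spread between these samples.

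In the classical pathway, the hormone enters the cell and binds the glucocorticoid receptor, Nr3c1, which chaperones of the Hsp90 family hold in a form ready for the ligand. The bound receptor moves to the nucleus and binds DNA as a dimer at glucocorticoid response elements, which are imperfect palindromes of AGAACA and TGTTCT with a spacer between them. Circulating corticosterone follows a daily rhythm and rises with stress, and the enzyme Hsd11b1 regenerates active hormone inside cells while Hsd11b2 inactivates it. Many of the induced genes also answer to other signals: the clock, metals, cytokines and growth factors among them. In salivary glands, glucocorticoids and aldosterone are known to act on ductal salt transport, and glucocorticoids and androgens on the granular ducts.

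The table held 16541396 to 26065856 counts per library, and 30-day libraries were shallower than all others. Values are CPM, the reads of a gene scaled to a common library total, after TMM scaling, which corrects the totals for composition. A floor of 3 counts equals 0.115 to 0.181 CPM. The secretory acinar gene Mucl2 alone took 31.4% to 42.8% of the counts, and the acinar markers Aqp5, Lpo and Pip were detected in every library, as the label salivary gland requires. The granular convoluted duct, a part of the rodent gland that stores Egf and kallikreins, differed between times. Its 7 markers summed to 5648 to 10805 at 30 days, 27905 to 35803 at 60 days and 23638 to 40439 CPM at 90 days. Of these markers, 7 of 7 rose from 30 to 60 days and from 30 to 90 days, against 1.14% and 1.81% of all genes. In bulk tissue, fewer cells of a type and less RNA per cell cannot be told apart.

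A pair of promoter sequences is shown because both carry the letters of the receptor's binding element next to genes measured here. RefSeq (GRCm38.p6) gave windows of 250 bases before the start for 8 of the 10 genes, in 16 windows over their alternative starts. The letters searched, on both strands, were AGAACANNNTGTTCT (the full palindrome), GNACANNNTGTNC (a looser palindrome that contains every full one), AGAACA or TGTTCT (a half-site, of which a full palindrome holds a pair), TGCACNC or TGCGCNC (the core of a metal response element) and CACGTG (the E-box bound by clock factors). The full palindrome was present in 3 of 32851 windows in the genome (0.00913%), and 1 of these 3 belongs to Sgk1. Capitals mark the receptor element and half-site letters.
Sgk1, chr10:21993640-21993889, + strand: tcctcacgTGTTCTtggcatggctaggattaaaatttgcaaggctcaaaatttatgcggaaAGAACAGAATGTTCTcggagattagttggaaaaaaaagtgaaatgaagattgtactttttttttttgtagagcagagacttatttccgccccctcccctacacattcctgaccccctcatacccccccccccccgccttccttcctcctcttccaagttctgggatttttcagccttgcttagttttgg
Mt1, chr8:94178839-94179088, + strand: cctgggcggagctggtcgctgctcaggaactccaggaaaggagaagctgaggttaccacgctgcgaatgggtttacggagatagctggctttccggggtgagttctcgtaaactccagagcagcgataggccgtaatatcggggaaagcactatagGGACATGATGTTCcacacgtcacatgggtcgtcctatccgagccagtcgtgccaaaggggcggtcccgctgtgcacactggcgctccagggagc

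The Sgk1 window belongs to the fifth of 6 RefSeq starts and lies inside the longer transcripts of the gene. Its palindrome, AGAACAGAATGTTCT, runs from base -189 to -175 before that start, and another half-site begins at -242 and overlaps an E-box at -246 to -241. In the Mt1 window the looser palindrome GGACATGATGTTC runs from -94 to -82, a match found in 0.387% of windows, and a metal response core begins at -23. Mt2 had 3 metal response cores, and a core was present in 21.4% of all windows. Half-sites were found in a window of Tsc22d3, beginning at -185, and in 2 more windows of Sgk1, against 16.1% of all windows. The Fkbp5 window held an E-box at -169 to -164, against 6.02% of windows. No searched letters were found in the windows of Klf9, Errfi1 and Lcn2. A match is a description of letters and was not tested as a bound site.

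The members that passed the test differed between comparisons. Between 30 and 60 days, Sgk1 and Cebpd rose. Between 30 and 90 days, Fkbp5 and Sgk1 rose, and between 60 and 90 days 0 of 9 passed the test. The time points overlapped for Mt1 and Errfi1, and Zbtb16 and Lcn2 varied most between libraries. The test was edgeR's quasi-likelihood test over 15224 genes with Benjamini-Hochberg adjustment, and a gene is said to rise or fall where the adjusted p was under 0.05.

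Between 30 and 60 days, 2 of 9 were called, both higher, where 1.56% of all genes were called and 1.14% were called higher. From 30 to 90 days, 2 of 9 were called, again both higher, against 3.57% of all genes, 1.81% higher and 1.77% lower. From 60 to 90 days, 0 of 9 were called against 0.256% of all genes (0.092% higher and 0.164% lower), although 5 of 9 had an unadjusted p under 0.05, against 10.8% of all genes, and DESeq2 called 3 and limma-voom 0. For any difference among the 3 times, 4 of 9 were called (Fkbp5, Sgk1, Klf9 and Cebpd), against 3.29%. The members' median log2 fold change was 0.19 from 30 to 60 days, -0.06 from 60 to 90 days and 0.44 from 30 to 90 days, beside medians over all genes between -0.00 and 0.01. With library totals alone in place of TMM, the all-gene medians shifted to 0.05, 0.17 and 0.24, and the members' medians became 0.22, 0.12 and 0.68. Of the 9, the number above 0 was then 8, 5 and 8 for these 3 comparisons, against 8, 3 and 5 with TMM.

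**Figure D1:**
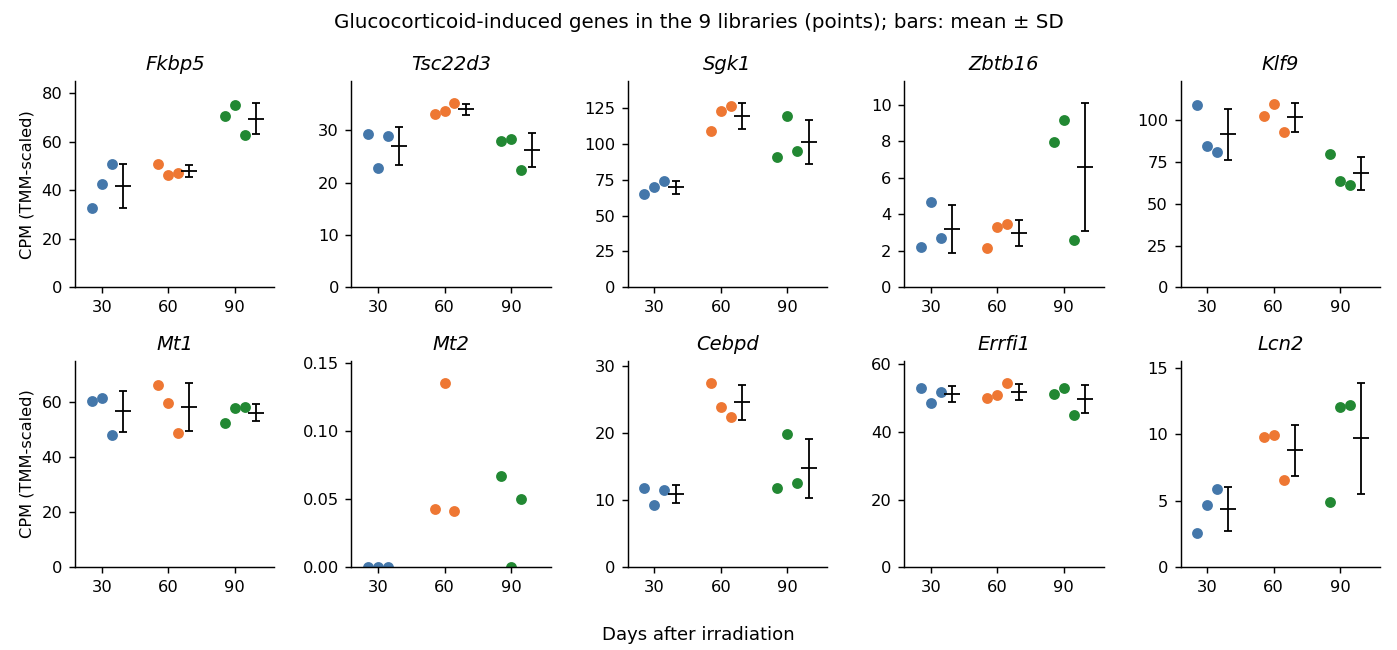
Level of each of the 10 genes in CPM after TMM scaling (y axis, a separate linear scale from 0 in each panel) against days after irradiation (x axis); points are the 9 libraries and bars the mean ± SD of 3, with no bar for Mt2, which had too few counts to test. Fkbp5 is highest in the 3 libraries at 90 days (62.6 to 75.3 CPM), Cebpd in the 3 at 60 days (22.4 to 27.4 CPM), and the 3 groups of Mt1 and of Errfi1 overlap.

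**Figure D2:**
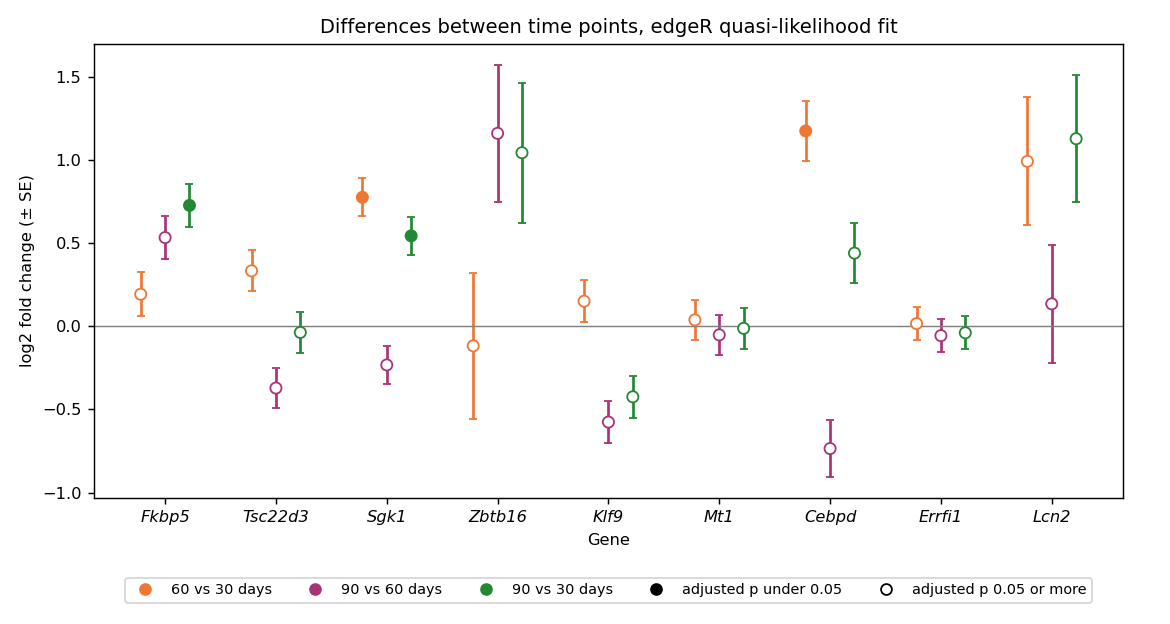
Log2 fold change between time points (y axis) for the 9 genes tested (x axis), from the edgeR quasi-likelihood fit; bars are ± SE, filled points have an adjusted p under 0.05 and open points do not. The filled points are Sgk1 and Cebpd for 60 against 30 days and Fkbp5 and Sgk1 for 90 against 30 days.

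Compared per kilobase of annotated exon, a scale on which levels of different genes can be set side by side, Mt1 was the most abundant of the 9 with a mean of 45.8 CPM per kilobase over all libraries. Sgk1 (19.7), Klf9 (18.1) and Errfi1 (14.2 CPM per kilobase) followed, then Tsc22d3 (6.70), Fkbp5 (5.61), Cebpd (4.46), Lcn2 (2.90) and Zbtb16 (0.81 CPM per kilobase). The highest library was 4.78 times the lowest for Lcn2, 4.25 times for Zbtb16, 2.94 times for Cebpd and 2.32 times for Fkbp5. That ratio was 1.95 for Sgk1, 1.79 for Klf9, 1.57 for Tsc22d3, 1.38 for Mt1 and 1.21 for Errfi1. The 2 genes with the fewest counts of the 9, Zbtb16 and Lcn2, thus had the widest range.

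Upstream of these genes stand the receptors and the enzymes that set hormone access. The glucocorticoid receptor gene Nr3c1 measured 32.3, 32.4 and 31.3 at 30 days, 35.5, 36.4 and 34.4 at 60 days and 35.6, 33.2 and 28.3 CPM at 90 days. The groups at 30 and 90 days overlapped, and the adjusted p for any difference was 0.661. Nr3c2, the mineralocorticoid receptor, which also binds corticosterone, measured 13.3, 14.3 and 13.5 at 30 days, 14.5, 19.0 and 23.6 at 60 days and 15.1, 17.3 and 15.05 CPM at 90 days. Every 60-day library was above every 30-day library, but the log2 fold change of 0.47 ± 0.15 (SE) had an adjusted p of 0.175.

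Hsd11b1, which regenerates active hormone, had the largest change of the upstream genes called. It measured 17.8, 28.9 and 30.9 at 30 days, 62.5, 65.6 and 50.5 at 60 days and 51.9, 76.2 and 64.4 CPM at 90 days. The 30-day libraries were all below all others. Hsd11b1 rose from 30 to 60 days by 1.20 ± 0.20 in log2 terms (SE; adjusted p = 0.0131) and from 30 to 90 days by 1.30 ± 0.20 (adjusted p = 0.00468). The first of these calls was lost without 60-day library 1 or 2 (adjusted p up to 0.0958), and the second was kept under all 18 alternatives. Granular duct markers rose over the same intervals, and their part in the result was not tested. Hsd11b2, the inactivating enzyme, had 18 counts in the 9 libraries together and was not tested.

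Of 20 receptor, steroid and chaperone genes listed, 18 were tested. Between 30 and 60 days 2 rose and 0 fell, from 60 to 90 days 0 were called, and from 30 to 90 days 4 rose and 0 fell, where 1.14% of all genes rose, 0.256% were called and 1.81% rose. The list's median log2 fold changes were 0.03, 0.03 and 0.02. Besides Hsd11b1 the genes called were co-chaperones and a chaperone of the receptor complex. Ptges3, the p23 co-chaperone, measured 23.4 to 30.9 CPM in the 30-day libraries, 35.5 to 41.0 in the 60-day and 41.3 to 43.1 CPM in the 90-day libraries. It rose by 0.53 ± 0.12 in log2 terms from 30 to 60 days (SE; adjusted p = 0.0267) and by 0.70 ± 0.12 from 30 to 90 days (adjusted p = 0.00201, kept under all 18 alternatives). The 60-day call was lost without 30-day library 1 or 3 or 60-day library 1 or 2, and with library totals alone (adjusted p up to 0.167). Hspa8, a constitutive Hsp70, rose from 30 to 90 days by 0.58 ± 0.12 (adjusted p = 0.00911, and 0.0600 without 90-day library 2). Stip1, which joins Hsp70 to Hsp90, rose by 0.43 ± 0.11 (adjusted p = 0.0275) and lost the call without any 30-day library or without 90-day library 2 or 3 (adjusted p up to 0.142). Fkbp4, the co-chaperone that favours receptor transport, averaged 196, 198 and 195 CPM, with an adjusted p of 0.996 for any difference.

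**Figure D3:**
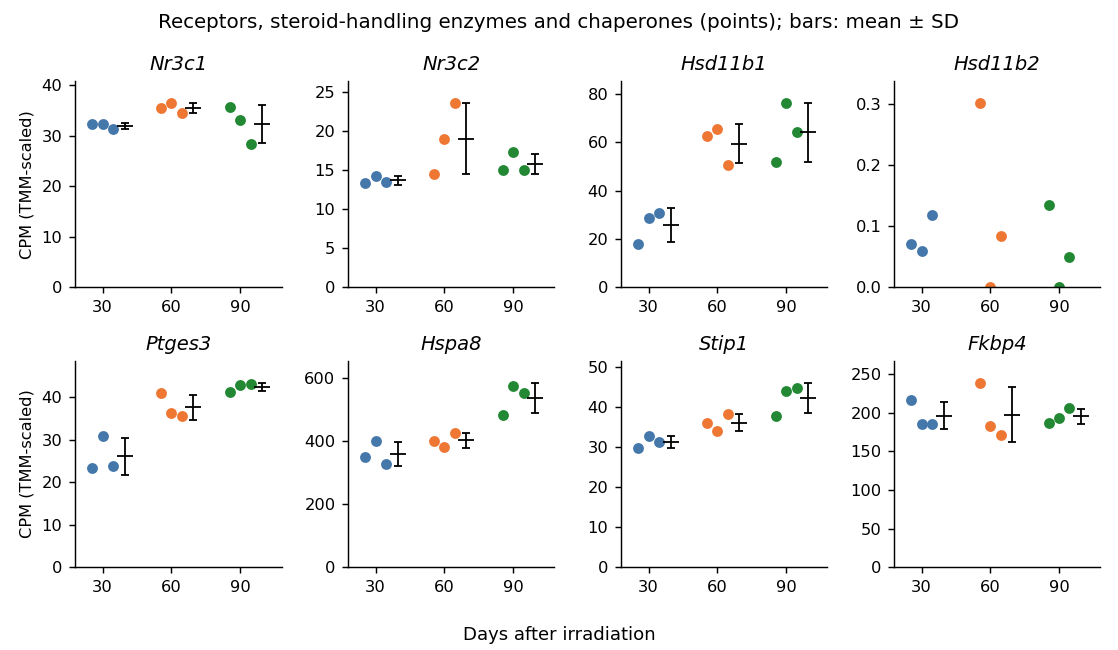
Level in CPM after TMM scaling (y axis, linear from 0) against days after irradiation (x axis) for the 2 receptors, the 2 steroid-handling enzymes and 4 chaperones; points are libraries and bars the mean ± SD of 3, with no bar for Hsd11b2, which was too low to test. Hsd11b1 lies at 17.8 to 30.9 CPM at 30 days and at 50.5 to 76.2 CPM later, while Nr3c1 lies between 28.3 and 36.4 CPM throughout.

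Fkbp5 (ENSMUSG00000024222, chromosome 17, 28399094 to 28517527, minus strand, GRCm38) encodes FKBP51, a co-chaperone that lowers the receptor's affinity for hormone and so closes a negative feedback loop. It measured 32.5, 42.5 and 50.7 at 30 days, 50.7, 46.1 and 47.2 at 60 days and 70.5, 75.3 and 62.6 CPM at 90 days. The 90-day libraries were above the other 6, and the 30-day and 60-day libraries overlapped. Fkbp5 rose from 30 to 90 days by 0.73 ± 0.13 in log2 terms (SE; adjusted p = 0.00392; 95% interval 0.45 to 1.00). This call was kept under all 18 alternatives, the highest adjusted p being 0.0267. Between 60 and 90 days the log2 fold change was 0.53 ± 0.13, with an adjusted p of 0.102 (0.0280 with DESeq2, 0.00118 with no filter and 0.0247 without 30-day library 1), and from 30 to 60 days it was 0.19 ± 0.13 (adjusted p = 0.599).

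Fkbp5 was the only one of the 9 whose 3 libraries at 90 days were all above all 3 at 60 days, a pattern seen in 8.30% of all genes. Markers of T and B lymphocytes, cells in which Fkbp5 is also known to be expressed, summed to 4.46 to 10.99 at 30 days, 6.51 to 7.59 at 60 days and 16.5 to 66.5 CPM at 90 days over 10 markers, all detected in at least 1 library. The 90-day values were 16.5, 66.5 and 21.1 CPM in libraries 1 to 3, and the markers' part in the result was not tested. Genes with the most similar course over the 9 libraries were Serpina3g (Pearson r = 0.970), A530040E14Rik (0.969) and Zyx (0.962), among 13018 genes that averaged at least 1 CPM. These correlations include the differences between times and are a description.

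Tsc22d3 (ENSMUSG00000031431, chromosome X, 140539528 to 140600659, minus strand) encodes GILZ, a leucine zipper protein that mediates part of the anti-inflammatory action of glucocorticoids. It measured 29.3, 22.7 and 28.9 at 30 days, 33.2, 33.7 and 35.2 at 60 days and 28.0, 28.3 and 22.5 CPM at 90 days. All 60-day libraries were above the other 6, and the 60-day group had the smallest spread, 34.0 ± 1.04 CPM (SD, n = 3). The difference did not pass the test in any of the comparisons or alternatives run. Its log2 fold change was 0.33 ± 0.12 from 30 to 60 days (SE; adjusted p = 0.244), -0.37 ± 0.12 from 60 to 90 days (adjusted p = 0.266) and -0.04 ± 0.12 from 30 to 90 days (adjusted p = 0.925).

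Sgk1 (ENSMUSG00000019970, chromosome 10, 21882184 to 21999903, plus strand) encodes a kinase induced by glucocorticoids and aldosterone that keeps epithelial sodium channels at the cell surface. It measured 64.8, 69.7 and 74.2 at 30 days, 109, 122 and 126 at 60 days and 90.8, 119 and 94.7 CPM at 90 days. Every 30-day library was below every later one, and 90-day library 2 lay within the 60-day range. Sgk1 rose from 30 to 60 days by 0.78 ± 0.12 in log2 terms (SE; adjusted p = 0.00139), a call kept under all 18 alternatives. From 30 to 90 days it rose by 0.55 ± 0.11 (adjusted p = 0.0113), and this call was lost without 30-day library 1 (adjusted p = 0.0708), 30-day library 2 (0.0521) or 90-day library 2 (0.0983). The change from 60 to 90 days was -0.23 ± 0.11 (adjusted p = 0.475).

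Sgk1 is the gene with the full palindrome shown above. The granular duct markers were also lowest in the 3 libraries at 30 days, and those markers' part in the rise was not tested. Among the genes most similar over the 9 libraries were Stxbp6 (r = 0.963) and Rell1 (0.956). Of 11 sodium transport genes linked to Sgk1, 10 were tested. Of these, 1 rose and 0 fell from 30 to 60 days, and from 30 to 90 days 2 rose and 0 fell, where 1.14% and 1.81% of all genes rose. The list's median log2 fold changes over these intervals were -0.04 and -0.06. Scnn1b, the beta subunit of the epithelial sodium channel, measured 52.8, 68.4 and 75.7 at 30 days, 95.9, 95.8 and 89.5 at 60 days and 96.6, 96.7 and 93.0 CPM at 90 days, with no overlap between 30 days and later. It rose by 0.51 ± 0.12 from 30 to 60 days (adjusted p = 0.0288) and by 0.54 ± 0.12 from 30 to 90 days (adjusted p = 0.0123). The earlier call was lost without 30-day library 1 or 2 or 60-day library 1 or 2, and with library totals alone (adjusted p up to 0.218). The later one was lost without 30-day library 1 or 90-day library 2 (up to 0.0790). The gamma subunit Scnn1g rose from 30 to 90 days by 0.47 ± 0.12 (adjusted p = 0.0383), a call lost without 30-day library 1 or 2, 60-day library 2 or 90-day library 2 or 3 (up to 0.210). The alpha subunit Scnn1a had a log2 fold change of 0.07 over that interval (adjusted p = 0.791).

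Among the transcription factors, Cebpd (ENSMUSG00000071637, chromosome 16, 15887286 to 15891031, plus strand) had the largest change that was called. It encodes C/EBP-delta, an early factor in fat cell differentiation and the acute phase response, induced by glucocorticoids and by cytokines. It measured 11.8, 9.32 and 11.5 at 30 days, 27.4, 23.8 and 22.4 at 60 days and 11.7, 19.8 and 12.6 CPM at 90 days. All 60-day libraries were above all others, and 90-day library 2 stood above the other 90-day libraries. Cebpd rose from 30 to 60 days by 1.18 ± 0.18 in log2 terms (SE; adjusted p = 0.00219), a call kept under all 18 alternatives. The step to 90 days gave a log2 fold change of -0.74 ± 0.17 (adjusted p = 0.0915), and -1.02 without 90-day library 2 (adjusted p = 0.00708), and DESeq2 (0.0145) and no filter on low counts (5.96e-05) gave a call with all libraries. From 30 to 90 days it was 0.44 ± 0.18 (adjusted p = 0.222).

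At 60 days Cebpd exceeded the mean of 30 and 90 days by 0.96 ± 0.15 in log2 terms (adjusted p = 0.00467, and 0.0510 without 60-day library 2). Sgk1 did so by 0.50 ± 0.10 (adjusted p = 0.0285). They were 2 of 9 called for this contrast, both higher, against 0.256% of all genes, 0.204% higher and 0.0525% lower. At an unadjusted p under 0.05 it was 4 of 9, against 9.45%. The Sgk1 call was lost without 30-day library 2 (adjusted p = 0.0977), 60-day library 2 (0.267) or 3 (0.0570) and 90-day library 1 (0.0721) or 3 (0.0875), and with limma-voom (0.0504) or library totals alone (0.591). Of the 3746 exonic bases of Cebpd, 562 also lie in exons of Spidr on the opposite strand. Spidr had 1018 counts in all against 3395 for Cebpd, and whether the counting used strand is not given in the sources used here. The courses most similar to that of Cebpd were those of Ccsap (r = 0.970), Alkbh5 (0.932) and Mettl16 (0.926). Macrophage markers, from cells in which Cebpd is also known to be induced, summed to 180 to 334 at 30 days, 218 to 245 at 60 days and 248 to 420 CPM at 90 days over 8 markers, all detected, and their part in the course of Cebpd was not tested.

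Klf9 (ENSMUSG00000033863, chromosome 19, 23141226 to 23168134, plus strand) encodes a Krüppel-like factor induced by glucocorticoids and thyroid hormone and known to follow the daily rhythm in some tissues. It measured 109, 84.5 and 81.0 at 30 days, 102, 109.6 and 92.6 at 60 days and 79.5, 63.7 and 61.1 CPM at 90 days. The 90-day libraries were below all others. Klf9 differed among the 3 times (adjusted p = 0.0348), and no pair of times passed the same test alone. The log2 fold change was -0.58 ± 0.13 from 60 to 90 days (SE; adjusted p = 0.0640) and -0.42 ± 0.13 from 30 to 90 days (adjusted p = 0.0733), and 0.15 ± 0.13 from 30 to 60 days (adjusted p = 0.691). The call among the 3 times was lost without 30-day library 2 (adjusted p = 0.0648), 60-day library 1 (0.0579) or 2 (0.121) and 90-day library 2 (0.161) or 3 (0.176), and with limma-voom (0.0501) or with library totals alone in place of TMM (0.339). Other settings gave calls for pairs of times: for 60 to 90 days these were DESeq2 (adjusted p = 0.00653), no filter on low counts (0.000118) and leaving out 30-day library 1 (0.0212), 60-day library 3 (0.0373) or 90-day library 1 (0.0278). For 30 to 90 days they were DESeq2 (0.0422), no filter (0.0114) and leaving out 90-day library 1 (0.0269).

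Klf9 thus had its lowest values at the time when Fkbp5 had its highest, and across the 9 libraries the pair had the lowest correlation of any pair of the 9 genes (Pearson r = -0.77, a description over libraries that share their time points). The gene with the course most like Klf9 was Lpo, the acinar marker lactoperoxidase (r = 0.971), followed by Zfp395 (0.965) and Lima1 (0.963). Acinar markers summed to 393102 to 534789 at 30 days, 311014 to 462321 at 60 days and 272537 to 406650 CPM at 90 days, all 8 detected. Mucl2, with 31.4% to 42.8% of all counts, makes up most of these sums. Of 7 tested, 2 fell from 30 to 90 days, Aqp5 and Lpo, against 1.77% of all genes. From 60 to 90 days 1 fell, Bhlha15, against 0.164% of all genes, and with library totals alone its adjusted p was 0.128. The Aqp5 call was lost without 30-day library 1 or 90-day library 2 and with library totals alone (adjusted p up to 0.206). The Lpo call was lost without 30-day library 1 or 2, 60-day library 2 or 90-day library 2 or 3 (up to 0.258). With library totals alone the Lpo call was lost too (adjusted p = 0.209). The part of the acinar markers in the course of Klf9 was not tested.

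Clock genes moved over the same interval. Of 17 clock and clock-output genes, all tested, 0 rose and 6 fell from 30 to 90 days, where 1.81% of all genes rose and 1.77% fell, with a median log2 fold change of -0.39 beside 0.01 over all genes. Over the first interval 0 rose and 2 fell, against 1.14% and 0.427% of all genes, and from 60 to 90 days 0 rose and 1 fell, against 0.092% and 0.164%. The falls from 30 to 90 days were largest in the core repressors Per2, by 1.14 in log2 terms (adjusted p = 0.00884, and up to 0.101 without 90-day library 2 or with library totals alone), and Per3, by 1.09 (adjusted p = 0.00201), then in the output factor Dbp, by 1.05 (adjusted p = 0.000227), and the repressor Cry2, by 0.76 (adjusted p = 0.00673, and up to 0.133 without 30-day library 1 or with library totals alone). With library totals alone, only Dbp (adjusted p = 0.00144) and Per3 (0.00991) of these 6 kept the call. That scaling also lost the calls from 30 to 60 days, those of Per2 (0.371) and Per3 (0.111). From 30 to 90 days, 4 of the 17 had a positive log2 fold change with TMM. For any difference among the 3 times 8 of 17 were called, against 3.29% of all genes, and Arntl was among them. Arntl was not called for any pair of times, but with library totals alone its log2 fold change from 30 to 90 days was 1.49 (adjusted p = 0.0362). Glucocorticoids and the clock act on each other, and the labels give no hour of harvest, so hour and time since irradiation cannot be told apart.

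Zbtb16 (ENSMUSG00000066687, chromosome 9, 48654297 to 48836222, minus strand) encodes PLZF, a zinc finger repressor strongly induced by glucocorticoids in several cell types and also expressed by innate-like lymphocytes. It had 918 counts in all and measured 2.20, 4.69 and 2.72 at 30 days, 2.16, 3.30 and 3.46 at 60 days and 7.98, 9.17 and 2.61 CPM at 90 days. A pair of 90-day libraries stood above the other 7, and 90-day library 3 lay among the earlier ones. The log2 fold change was 1.16 ± 0.41 from 60 to 90 days (SE; adjusted p = 0.336) and 1.05 ± 0.42 from 30 to 90 days (adjusted p = 0.236). Without 90-day library 3 these were 1.52 (adjusted p = 0.0339) and 1.41 (adjusted p = 0.0229), and with no filter on low counts the adjusted p-values were 0.000855 and 0.00185. From 30 to 60 days the log2 fold change was -0.12 ± 0.44 (adjusted p = 0.952). The lymphocyte markers given above summed to 16.5, 66.5 and 21.1 CPM in 90-day libraries 1 to 3, and their part in the values of Zbtb16 was not tested.

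Errfi1 (ENSMUSG00000028967, chromosome 4, 150853919 to 150868892, plus strand) encodes MIG6, an inhibitor that binds the active Egf receptor and is induced by both glucocorticoids and Egf receptor signalling. It measured 53.1, 48.5 and 51.9 at 30 days, 49.9, 50.9 and 54.5 at 60 days and 51.3, 52.9 and 45.1 CPM at 90 days. The 3 groups overlapped, and no difference passed the test. The 95% interval of the log2 fold change ran from -0.19 to 0.23 for 30 to 60 days, from -0.26 to 0.15 for 60 to 90 days and from -0.25 to 0.17 for 30 to 90 days. Over the same times Egf, the ligand stored in granular ducts, rose by 2.14 ± 0.26 in log2 terms from 30 to 60 days (adjusted p = 0.00129), and Dusp6, a feedback phosphatase of the ERK pathway, fell by 1.51 in log2 terms (adjusted p = 6.74e-07). Of 11 tested genes of Egf receptor feedback and its ligands, these were the 2 called from 30 to 60 days, where 1.14% of all genes rose and 0.427% fell. Between 60 and 90 days 1 rose and 0 fell, against 0.092% and 0.164% of all genes. From 30 to 90 days 1 rose and 0 fell, against 1.81% and 1.77%.

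The metallothioneins bind zinc and copper and are induced by metals, oxidative stress and glucocorticoids. Mt1 (ENSMUSG00000031765, chromosome 8, 94179082 to 94180327, plus strand), whose promoter window is shown above, measured 60.6, 61.4 and 48.1 at 30 days, 66.2, 59.7 and 48.9 at 60 days and 52.6, 57.8 and 58.3 CPM at 90 days. The groups overlapped, and the largest log2 fold change between times was -0.05. The 95% interval ran from -0.22 to 0.29 for 30 to 60 days, from -0.30 to 0.20 for 60 to 90 days and from -0.27 to 0.24 for 30 to 90 days. A Mt1 change of the size of that in Cebpd is outside these intervals.

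Mt2 (ENSMUSG00000031762, chromosome 8, 94172664 to 94173568, plus strand), the neighbour of Mt1, had 8 counts in the 9 libraries together, with 3 in the highest library and 0 in all 30-day libraries. No library was above the floor, so no fold is given, although Mt1 had between 48.1 and 66.2 CPM in the same libraries. Of the 588 exonic bases annotated for Mt2, 432 are shared with an antisense gene, Gm45774, which had 12 counts. How reads in the shared bases were counted is not given in the sources used here. Of 12 other metal-handling genes listed, 8 were tested and 0 passed in any pair of times, with 2 at an unadjusted p under 0.05 from 30 to 60 days, against 12.4% of all genes. The smallest p-values belonged to Slc30a4, a zinc exporter (log2 fold change 0.44 ± 0.12 from 30 to 60 days, adjusted p = 0.0810), and Mtf1, the metal-sensing activator of Mt1 (0.32 ± 0.15, adjusted p = 0.395).

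Lcn2 (ENSMUSG00000026822, chromosome 2, 32384633 to 32388252, minus strand) encodes lipocalin 2, a secreted protein that withholds iron from bacteria, made by epithelia and neutrophils in inflammation. It measured 2.55, 4.69 and 5.86 at 30 days, 9.83, 9.94 and 6.59 at 60 days and 4.88, 12.0 and 12.2 CPM at 90 days. Every 60-day library was above every 30-day library, and 90-day library 1 lay within the 30-day range. The log2 fold change was 0.99 ± 0.39 from 30 to 60 days (SE; adjusted p = 0.320), 0.14 ± 0.36 from 60 to 90 days (adjusted p = 0.932) and 1.13 ± 0.38 from 30 to 90 days (adjusted p = 0.163). Without 90-day library 1 the last of these was 1.45 (adjusted p = 0.00428), and with all libraries DESeq2 gave an adjusted p of 0.0119 and no filter on low counts one of 1.90e-05. The 60-day difference was also called without 90-day library 1 (adjusted p = 0.0499) and with no filter (0.000512).

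Neutrophil markers, from the other main source of Lcn2, were near 0. Of 12 markers 7 were detected, S100a8, Ngp, Elane, Retnlg and Cxcr2 had no counts, and the sum over the list ran from 1.13 to 2.85 at 30 days, 1.34 to 2.63 at 60 days and 2.36 to 2.99 CPM at 90 days. Of 21 acute phase and cytokine-responsive genes, 15 were tested and 0 passed in any pair of times, with 5 at an unadjusted p under 0.05 from 30 to 90 days, against 16.8% of all genes. The smallest p-values for any difference included that of Hp, haptoglobin, which averaged 22.2 ± 4.88 at 30 days, 31.7 ± 5.84 at 60 days and, at 90 days, 36.5 ± 7.98 CPM (SD, n = 3 each; log2 fold change from 30 to 90 days 0.71 ± 0.19, adjusted p = 0.0539). Il1b, interleukin 1 beta, had a log2 fold change of 1.66 ± 0.56 over that interval (adjusted p = 0.112) at levels of 1.45 CPM or less.

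**Figure D4:**
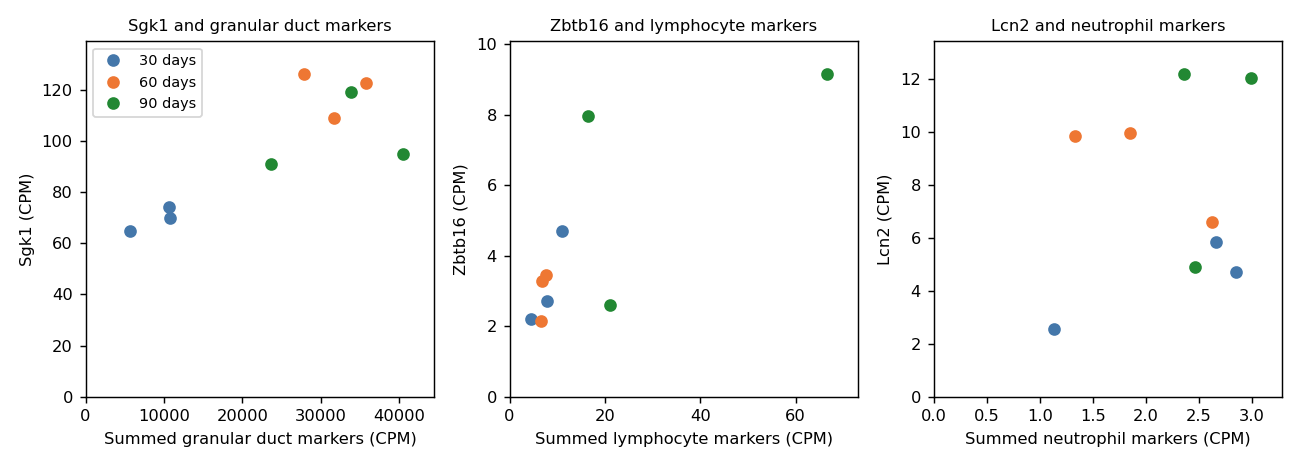
Each point is a library, coloured by time point, with the level of a gene in CPM on the y axis against the summed CPM of a marker list on the x axis; all axes are linear from 0. Sgk1 and granular duct markers are both lowest in the 3 libraries at 30 days, and neutrophil markers reach 2.99 CPM at most. The highest Zbtb16 value (9.17 CPM) lies at the highest lymphocyte sum (66.5 CPM). In the other 90-day libraries Zbtb16 is 7.98 CPM at a sum of 16.5 CPM (library 1) and 2.61 CPM at 21.1 CPM (library 3).

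Other genes known to be induced by glucocorticoids were read from a list of 30, of which 28 were tested. Between 30 and 60 days 2 rose and 0 fell, from 60 to 90 days 0 rose and 1 fell, and from 30 to 90 days 1 rose and 2 fell. Over all genes, 1.14% rose and 0.427% fell, 0.092% rose and 0.164% fell, and 1.81% rose and 1.77% fell in these intervals. The list's median log2 fold changes were 0.02, -0.05 and 0.03. Dusp1, a phosphatase that switches off stress kinases and a textbook receptor target, measured 3.97, 6.77 and 6.21 at 30 days, 21.3, 19.1 and 38.8 at 60 days and 8.29, 5.63 and 6.47 CPM at 90 days. Its 60-day libraries were above all others, as were those of Tsc22d3 and Cebpd. It rose from 30 to 60 days by 2.21 ± 0.30 in log2 terms (SE; adjusted p = 0.00394). It then fell by 1.96 (SE 0.28, adjusted p = 0.0181). This later call was lost without 90-day library 2 or 3 and with library totals alone (adjusted p up to 0.167). Dusp1 is also an immediate early gene, and of 17 other immediate early genes 0 passed from 30 to 60 days, with 7 at an unadjusted p under 0.05, against 12.4% of all genes. Between 30 and 90 days 1 of these 17 fell, where 1.77% of all genes fell. This was the orphan receptor Nr4a1, by 0.49 in log2 terms (SE 0.13; adjusted p = 0.0366). Its call was lost without 30-day library 1 or 2, 60-day library 2 or 90-day library 2 or 3. With library totals alone it was lost too (adjusted p = 0.385).

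Txnip, which binds thioredoxin and limits glucose uptake, averaged 189 ± 39.0 at 30 days, 277 ± 21.5 at 60 days and, at 90 days, 285 ± 25.1 CPM (SD, n = 3 each). It rose from 30 to 90 days by 0.59 ± 0.14 in log2 terms (SE; adjusted p = 0.0186, and up to 0.110 without 30-day library 2 or 90-day library 2). Already by 60 days it rose by 0.55 ± 0.14 (adjusted p = 0.0473), which 12 of 18 alternatives did not give (adjusted p up to 0.255), among them the loss of any 1 library except 60-day library 3. Usp2, a deubiquitinase that follows the clock, averaged 76.5 ± 23.8, 66.5 ± 3.11 and 36.3 ± 8.13 CPM and fell by 1.07 in log2 terms from 30 to 90 days (SE 0.22; adjusted p = 0.0239). That call was lost without 60-day library 1 or 3 or 90-day library 2 (adjusted p up to 0.111). Glul, glutamine synthetase, fell by 0.64 in log2 terms (SE 0.15; adjusted p = 0.0223), a call lost without 30-day library 1 or 90-day library 1 or 3 and with library totals alone (up to 0.212).

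Within a time point, the 9 genes did not deviate evenly over libraries. In 90-day library 2, 8 of 9 were above their group's mean, and in 90-day library 3, 2 of 9 were. In the other 7 libraries 4 to 6 of 9 were above the mean. Over all 9 libraries the highest correlations were between Sgk1 and Cebpd (Pearson r = 0.86), Tsc22d3 and Cebpd (0.78) and Sgk1 and Lcn2 (0.76), a description in which the differences between times are included. The groups of 2 times did not overlap for 4 of 9 genes from 30 to 60 days, all higher (Tsc22d3, Sgk1, Cebpd and Lcn2), a share of all genes of 8.65% higher and 8.22% lower. Between 60 and 90 days 1 gene was higher without overlap (Fkbp5, against 8.30% of all genes) and 3 were lower (Tsc22d3, Klf9 and Cebpd, against 7.64%). Between 30 and 90 days 2 were higher (Fkbp5 and Sgk1, against 11.4%) and 1 was lower (Klf9, against 11.8%).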

How the data were processed

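RNA was sequenced from 9 glands, and the authors deposited whole-number read counts for 54532 Ensembl gene identifiers. The submitters' processing notes name fastp, STAR, featureCounts and mm10, while versions, annotation and use of strand are not given in the sources used here. Samples were grouped by the day in their titles, and 3 columns matching no sample were not used. Symbols were found for 54409 identifiers, and 54495 are in GENCODE mouse release 21 (GRCm38), which gave positions and exon lengths. A filter (filterByExpr, minimum count 10) left 15224 of 27001 genes with a count. edgeR 4.0.16 with TMM factors fitted all 9 libraries with time as the only term (common biological coefficient of variation 0.150), and its robust quasi-likelihood test with Benjamini-Hochberg adjustment over 15224 genes gave every adjusted p-value, with 0.05 as the threshold, unless another tool is named. The fit was tested on simulated data, where the share of unchanged genes among its calls was above the nominal 0.05, so calls near the threshold are less secure than their adjusted p states. The SE of a log2 fold change was derived from that test, as its absolute value divided by the square root of the F statistic. The 95% intervals extend from the log2 fold change by this SE times a t quantile. CPM were scaled with the TMM factors, and correlations use log2 CPM with a prior count of 2.

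Alternatives tried were library totals alone, DESeq2-type size factors, DESeq2 1.42.0, voom from limma 3.58.1, no filter, at least 10 counts in every library, the sample number as a block, only the 6 libraries of a contrast, and leaving out each library. Thinning every library to the lowest total count was chosen after seeing the data. The members and the gene lists were chosen with earlier results of these data known. Text names all members, 4 receptor and steroid-handling genes, up to 4 genes per list with the largest change among those called, otherwise the 2 with the smallest p, and the 3 genes most similar in course to each member called for any difference, of which 1 is not reported here. Fkbp4, Scnn1a, Ptges3, Hspa8, Stip1, Arntl and Bhlha15 were chosen after their values were seen. The floor of 3 counts covers counting error only, since amplified reads are not independent molecules. Software was R 4.3.3, Python 3.11.15, pandas 2.3.3 and matplotlib 3.10.9.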

Additional observations from a re-analysis of the deposited data

Results flagged for a closer look

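Sgk1 and Cebpd changed differently over the 2 intervals, by a test of that difference. As the fitted log2 level at 60 days minus the mean of 30 and 90 days, the value was 0.50 for Sgk1 (adjusted p = 0.0285) and 0.96 for Cebpd (adjusted p = 0.00467, edgeR's quasi-likelihood test). All 3 libraries at 60 days were above the mean of each other group for both genes. The Sgk1 call was lost under 7 of 17 alternatives, with adjusted p-values of 0.591 with library totals alone, 0.0504 with limma-voom and 0.0570 to 0.267 leaving out 1 of 5 libraries. The Cebpd call was lost under 1 of 17, without 60-day library 2 (0.0510).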

How the results depend on the processing

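With 18 alternatives per pair of times and 17 for the other contrasts, no called value reversed. Fkbp5 from 30 to 90 days and Sgk1 and Cebpd from 30 to 60 days kept their calls under all 18. Where a count moved by over 1.5 times, the cause was not tested. From 30 to 60 days, 238 of all genes were called, against 90 with library totals alone, 376 with DESeq2, 152 with limma-voom, 459 with no filter and 73 to 244 leaving out a library. From 60 to 90 days, 39 were called, against 150 with DESeq2, 354 with no filter, 92 with the sample number as a block and 16 to 103 leaving out a library. From 30 to 90 days, 544 were called, against 867, 1045 and 184 to 703 for DESeq2, no filter and leaving out a library. For 60 days against the mean of 30 and 90 days, 39 were called, against 20 with library totals alone, 148 with DESeq2, 230 with no filter, 73 with the block and 13 to 81 leaving out a library. For any difference, 501 were called, against 277, 847, 333 and 1194 with library totals alone, DESeq2, limma-voom and no filter, and 220 to 683 leaving out a library. Of the 9 glucocorticoid-induced genes, leaving out a library gave 2 to 3, 0 to 2, 1 to 4, 0 to 2 and 3 to 5 calls for these contrasts in turn. From 60 to 90 days DESeq2 called 3 of them, no filter 4 and the block 1. From 30 to 90 days DESeq2 called 4 and no filter 5, and for 60 days against the mean library totals alone and limma-voom called 1 each. With the block, Klf9 was called from 60 to 90 days (adjusted p = 0.0136) and from 30 to 90 days (0.0277). Whether equal sample numbers pair the samples could not be decided with 3 libraries per group. Correlations of same-numbered libraries ran from -0.060 to 0.191, and a library correlated best with its own number in 8 of 18 cases. With few counts, Zbtb16 and Lcn2 had the widest errors, and Mt2 could not be measured.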

Other observations

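Per1, a clock gene and direct receptor target, was chosen after its values were seen. It measured 92.8, 53.9 and 59.7 CPM at 30 days, 96.2, 105 and 119 CPM at 60 days and 55.9, 43.3 and 19.3 CPM at 90 days. From 60 to 90 days its libraries did not overlap, and the log2 fold change was -1.42 ± 0.40 (SE; adjusted p = 0.295, edgeR's quasi-likelihood test).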
